A study of Mus musculus with 19 samples.

Results

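Pericentral liver genes and targets of Wnt signalling were followed in 2 mouse experiments that model fibrolamellar carcinoma, the liver cancer that carries a DNAJB1-PRKACA fusion of a heat shock protein gene and the gene of the catalytic subunit of PKA. The genes were named by symbol, with earlier results of these data known: Cyp2e1, Cyp1a2, Glul, Axin2, Tbx3, Rnf43, Znrf3, Lgr5, Wnt4 and Ctnnb1. Of these 10 genes, 9 are among the 13549 genes of the embryo table and 9 are among the 17606 gene IDs of the tumour files. Cyp1a2 was not analysed in the embryos and Wnt4 was not analysed in the tumours. The question was whether a fall of Cyp2e1 was shared by targets of beta-catenin, and how Wnt4 moved.

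The embryo groups were livers at embryonic day 18.5 of 5 control and 4 fusion embryos. The fusion embryos carried a DNAJB1-PRKACA-GFP cDNA in Rosa26 behind a stop that Cre removes, with Cre driven by the albumin promoter (Alb-Cre). Their genotype is labelled DNAJ1B-PKA_Overexpression; the labels call the others control and do not say which of the alleles they carry. The tumour groups were subcutaneous allografts of FL8 cells, grown from gelatin capsules in the flanks of immunodeficient NSG mice. Once tumours averaged 75 mm3, 5 received the methocel vehicle and 5 received 75 mg/kg palbociclib by gavage for 3 days, followed by 4 days without treatment. Palbociclib blocks CDK4 and CDK6, which drive cells into S phase. The labels give neither the genotype of FL8 cells nor the mouse each tumour came from, and the stroma of the host is mouse tissue too.

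In the liver lobule, endothelial cells of the central vein release Wnt ligands and R-spondin, and hepatocytes near the vein respond through beta-catenin. R-spondin binds LGR receptors and thereby removes the ubiquitin ligases RNF43 and ZNRF3, which otherwise clear Frizzled receptors from the cell surface. Hepatocytes around the central vein express glutamine synthetase (Glul) and the cytochromes Cyp2e1 and Cyp1a2, while those near the portal vein make glucose and urea. This zonation is still forming around birth.

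The upstream DNA of the genes that the embryo results turn on was read from RefSeq sequence on GRCm38.p6, the assembly known as mm10. Of the 10 genes, 7 were matched in that table. Each run reads 5′ to 3′ on the plus strand and stops before the first annotated exon, so the lengths differ. Cyp2e1 (chr7:140763569-140763738) is shown as the gene that fell furthest, Glul (chr1:153899679-153899928) as the pericentral gene beside it, and Wnt4 (chr4:137277385-137277488) as the gene that rose. Capitals mark the letters CTTTGAA, a form of the motif bound by the TCF partners of beta-catenin.

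Cyp2e1: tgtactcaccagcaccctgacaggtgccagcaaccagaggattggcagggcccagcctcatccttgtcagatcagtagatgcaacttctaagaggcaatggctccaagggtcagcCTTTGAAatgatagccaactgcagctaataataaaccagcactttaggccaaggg
Glul: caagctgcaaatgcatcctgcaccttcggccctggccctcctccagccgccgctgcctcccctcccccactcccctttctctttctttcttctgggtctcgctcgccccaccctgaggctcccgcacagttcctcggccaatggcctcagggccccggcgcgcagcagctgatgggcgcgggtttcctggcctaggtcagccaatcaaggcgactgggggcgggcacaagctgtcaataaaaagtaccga
Wnt4: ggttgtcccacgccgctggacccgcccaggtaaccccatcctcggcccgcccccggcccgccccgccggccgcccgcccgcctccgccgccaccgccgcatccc

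The 250 bases before each start were searched on both strands for CTTTGAA, for its variant CTTTGAT, for TGACGTCA (the full site of the PKA-responsive factor CREB) and for TGACG, a shorter form that TGACGTCA contains. CTTTGAA was found before Cyp2e1, 129 to 135 bases from the RefSeq start, and before Cyp1a2 on the strand opposite to that gene, 238 to 244 bases from its start. Over 32807 windows of the same length, 4.46% held CTTTGAA, 3.21% held CTTTGAT, 1.55% held TGACGTCA and 17.8% held TGACG. The windows of Glul, Axin2, Rnf43 and Wnt4 held none of these letters, and that of Ctnnb1 held TGACG alone, before its second start. A match is a description of letters in a window and not of binding.

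The embryo libraries held 7.66 to 45.6 M counts (M, 1000000) and the tumour libraries 2.96 to 43.1 M reads. A pair of sets of embryo libraries stood apart in the share of counts from ribosomal protein genes, a split read from the data and not from the labels. Control 1 and 2 with fusion 8 and 9 had 9.68% to 10.1%, and control 3 to 5 with fusion 6 and 7 had 6.16% to 7.85%. In the set with the low share all controls had the Xist level of males (at most 0.448 CPM, counts per 1000000 of the library) and both fusion livers that of females (at least 246 CPM), so that sex and genotype cannot be told apart there. In the set with the high share, both controls and fusion 8 had the Xist level of females and fusion 9 that of males (0.534 CPM), so fusion 9 was the only fusion liver of that kind. Among the tumours, vehicle 1 stood apart with 46.6% of its reads from mitochondrial genes, against 1.24% to 6.47% in the others, and vehicle 5 was the shallowest. Prkaca, which the fusion contains in part, had a mean of 42.4 ± 5.48 CPM over the 5 control livers and 73.4 ± 28.6 CPM over the 4 fusion livers (mean ± SD, as for all such levels that follow; log2 fold change 0.78 ± 0.22 SE, edgeR adjusted p = 0.0379). Fusion 8 and 9, at 54.0 and 52.5 CPM of Prkaca, lay just above control 2 at 50.0 CPM, and the call remained in 3 of 9 fits that left out 1 library. Within the libraries of high ribosomal share the change of Prkaca was 0.19 (adjusted p = 0.367). All 10 hepatocyte markers listed were detected in both experiments.

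**Figure D1:**
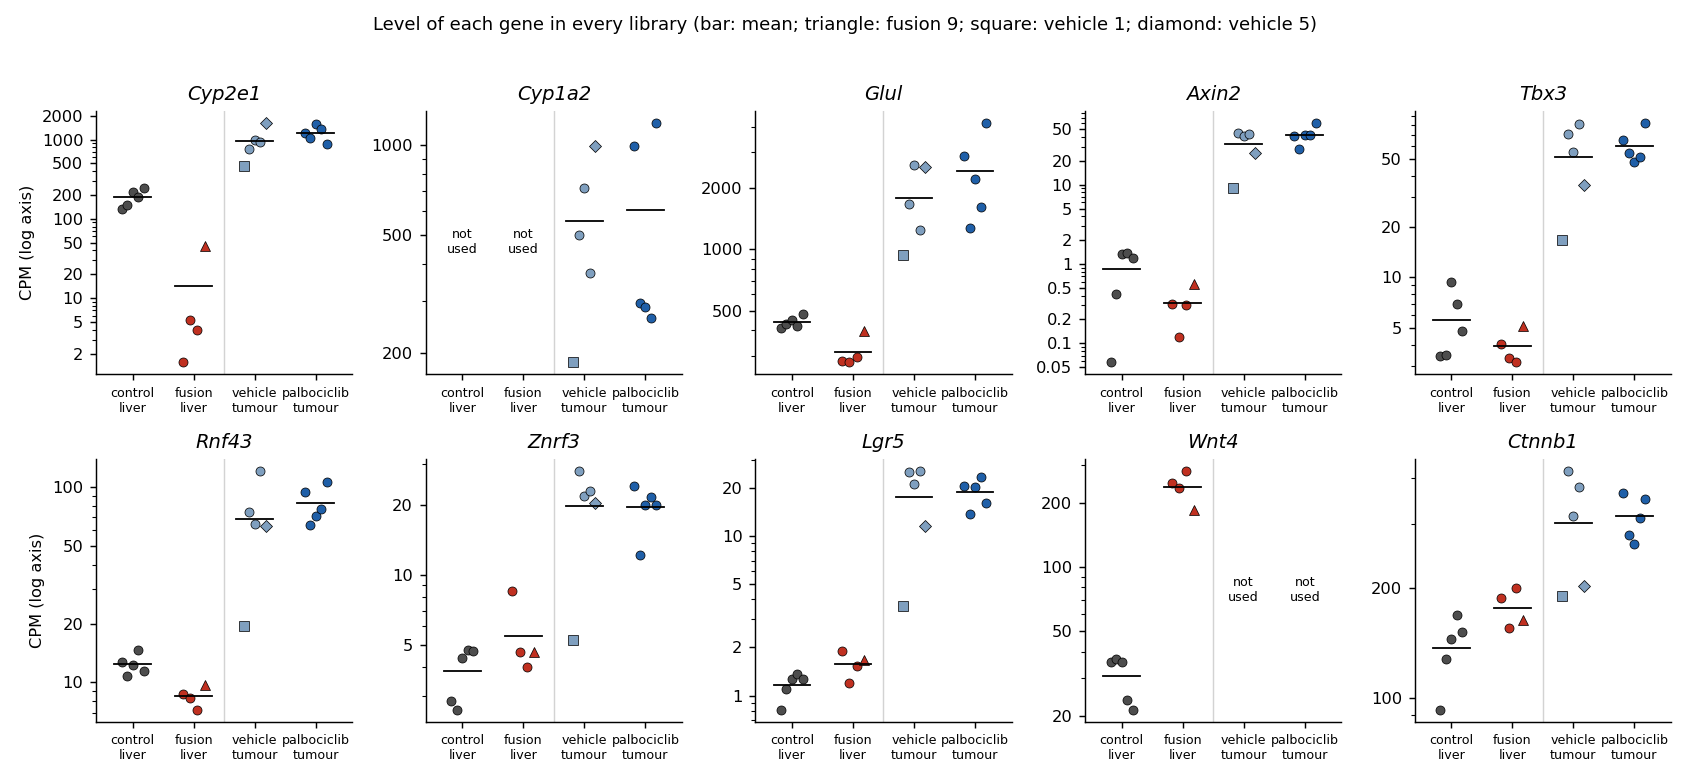
Level of each gene in CPM (log axis; TMM-scaled in the livers, as deposited in the tumours) in every library of the 4 groups, with bars at the means. Cyp2e1 in fusion livers lies between 1.56 and 45.3 CPM, below all control livers, and Wnt4 lies between 185 and 283 CPM, above all of them; the tumour groups overlap for every gene plotted, and liver and tumour levels were normalized separately.

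Fusion livers had less Cyp2e1, Glul and Rnf43 and more Wnt4 than control livers, whereas Tbx3, Znrf3, Lgr5 and Ctnnb1 did not pass the test. Cyp2e1 was 13.4-fold lower in mean level, Glul and Rnf43 were 1.40-fold and 1.46-fold lower, and Wnt4 was 7.77-fold higher. Thus 4 of the 8 genes tested passed an adjusted p of 0.05 in edgeR's quasi-likelihood test (1 higher, 3 lower), where 12.8% of all 13316 genes tested did, 5.99% higher and 6.81% lower. The same 4 of the 9 genes present had groups without overlap, against 16.9% of the genes tested (9.26% higher and 7.6% lower).

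Cyp2e1 encodes a cytochrome P450 that oxidises ethanol and paracetamol. Its level in control livers 1 to 5 was 135, 152, 219.8, 190.1 and 245 CPM. In fusion livers 6 to 9 it was 1.56, 5.23, 4.00 and 45.3 CPM. All fusion livers were below all control livers, and fusion 9 was far above the other fusion livers. The log2 fold change was -3.79 ± 0.83 (SE), with an edgeR adjusted p of 0.0141. Without fusion 9 it was -5.79 ± 0.43 (adjusted p = 2.51e-05). Within the libraries of high ribosomal share, to which fusion 9 belongs and where 20.0% of genes were called, it was -2.55 ± 0.66 (edgeR adjusted p = 0.0244), and within those of low share, where 21.8% were called, it was -6.22 ± 0.41 (edgeR adjusted p = 1.50e-05). The difference between these sets, -3.66 ± 0.94, did not pass an edgeR interaction test (adjusted p = 0.111), which 0.188% of genes passed.

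Glul encodes glutamine synthetase, which captures ammonia in the last hepatocytes before the central vein. Control livers 1 to 5 had 412, 429.9, 449.8, 418 and 479 CPM. Fusion livers 6 to 9 had 282, 279, 294 and 395 CPM. The groups did not overlap, and fusion 9 was again the fusion liver nearest to the controls. The change was -0.50 ± 0.14 on the log2 scale, with an edgeR adjusted p of 0.0366. This call was lost without any one library other than fusion 9 (adjusted p from 0.0572 to 0.111), and within the libraries of high ribosomal share the change was -0.31 (adjusted p = 0.201).

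Axin2, Tbx3 and Lgr5 are widely used readouts of beta-catenin. Axin2 is a feedback scaffold of the complex that destroys beta-catenin, and Tbx3 is a transcription factor. Axin2 was close to the limit of detection, with 1, 3, 28, 33 and 27 counts in control livers 1 to 5 and 15, 2, 4 and 8 in fusion livers 6 to 9. These counts are 0.06, 0.41, 1.32, 1.36 and 1.18 CPM in the controls and 0.31, 0.12, 0.31 and 0.55 CPM in the fusion livers. The groups overlap, because control 1 and control 2, at or below a floor of 3 counts, lie with the fusion livers while the other controls lie above them. The filter on low counts removed Axin2. Without it the log2 fold change was -1.53 ± 0.63 (edgeR adjusted p = 0.134), and within the libraries of low ribosomal share it was -2.32 ± 0.38 (edgeR adjusted p = 0.00314).

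Tbx3 was 3.43, 3.45, 9.42, 6.93 and 4.79 CPM in control livers 1 to 5. Fusion livers 6 to 9 had 4.03, 3.31, 3.15 and 5.18 CPM. The fusion livers lie within the range of the controls except for 2 that lie just under it. Its log2 fold change was -0.55 ± 0.30 (edgeR adjusted p = 0.250). That value was -0.92 (adjusted p = 0.0377) within the libraries of low ribosomal share and 0.26 (adjusted p = 0.576) within those of high share, and the edgeR interaction (-1.17 ± 0.44) had an adjusted p of 0.208.

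Lgr5, a receptor of R-spondin, was 0.81, 1.10, 1.27, 1.36 and 1.26 CPM in control livers 1 to 5 and 1.90, 1.20, 1.54 and 1.66 CPM in fusion livers 6 to 9. The groups overlap only through fusion 7, and the log2 fold change was 0.42 ± 0.23 (edgeR adjusted p = 0.248). Lgr5 counts were 8 to 91 per library. Thus, of 3 common readouts, Axin2 and Tbx3 had lower and Lgr5 had higher mean levels in fusion livers. Tbx3 and Lgr5 did not pass the test over all 9 livers, and the filter kept Axin2 out of it.

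Rnf43 and Znrf3 encode related ubiquitin ligases that limit Wnt reception, and both are themselves targets of beta-catenin. Rnf43 was 12.7, 10.8, 12.2, 14.6 and 11.4 CPM in control livers 1 to 5. It was 8.72, 8.30, 7.23 and 9.67 CPM in fusion livers 6 to 9. Every fusion liver was below every control (log2 fold change -0.56 ± 0.14 SE, edgeR adjusted p = 0.0214). The call was lost without control 3 (adjusted p = 0.0570), fusion 7 (0.0617) or fusion 8 (0.0625), and within the libraries of high ribosomal share (-0.51, adjusted p = 0.107). Reads of Rnf43 are uncertain, since the annotated gene 1110028F11Rik overlaps it on the same strand over 3936 bases.

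Znrf3 was 2.85, 2.62, 4.38, 4.74 and 4.70 CPM in control livers 1 to 5, and 8.55, 4.63, 4.00 and 4.63 CPM in fusion livers 6 to 9. Fusion 6 alone was above the range of the controls. The log2 fold change was 0.48 ± 0.27 (edgeR adjusted p = 0.252), and 0.16 without fusion 6 (adjusted p = 0.718). With the ribosomal share set as a covariate, a fit in which 32.6% of genes were called, it was 0.57 (adjusted p = 0.0283).

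Ctnnb1 encodes beta-catenin itself, whose activity is mainly set by protein stability and not by transcript level. It was 92.8, 128, 145, 168 and 151 CPM in control livers 1 to 5 and 188, 155, 199 and 164 CPM in fusion livers 6 to 9. Fusion 6 and 8 were above all controls and the other two were not. The log2 fold change was 0.35 ± 0.17 (edgeR adjusted p = 0.189). With the ribosomal share set as a covariate, where 32.6% of genes were called, it was 0.39 (adjusted p = 0.0471). Within the libraries of high share, where 20.0% were called, it was 0.70 (adjusted p = 0.0228). Of 10 alternatives other than leaving out 1 library, these 2 alone called Ctnnb1 (changes of 0.14 to 0.70). Leaving out 1 library called it in 0 of 9 fits. The edgeR interaction between the sets (-0.55 ± 0.23) had an adjusted p of 0.245. Reads of Ctnnb1 could include the antisense gene Ulk4, which overlaps it over 5157 bases, as the use of strand in counting is not given in the sources used here. Antisense genes also overlap Lgr5 (A930009A15Rik, 12463 bases), Axin2 (Gm11670, 2706), Tbx3 (Tbx3os1, 697) and Glul (Teddm2, 285). These lengths, like that for Rnf43, are of whole genes and not of exons alone.

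Wnt4 encodes a secreted Wnt ligand, best known from the development of kidney and gonad. Control livers 1 to 5 had 35.7, 36.7, 35.9, 23.5 and 21.3 CPM. Fusion livers 6 to 9 had 248, 235, 283 and 185 CPM. Every fusion liver was far above every control, and fusion 9 was the lowest of them. The log2 fold change was 2.94 ± 0.21 (SE), with an edgeR adjusted p of 1.50e-05. It was 2.67 ± 0.20 within the libraries of high ribosomal share (edgeR adjusted p = 8.03e-05) and 3.16 ± 0.20 within those of low share (adjusted p = 1.06e-05). Leaving out any one library kept it between 2.85 and 3.05.

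**Figure D2:**
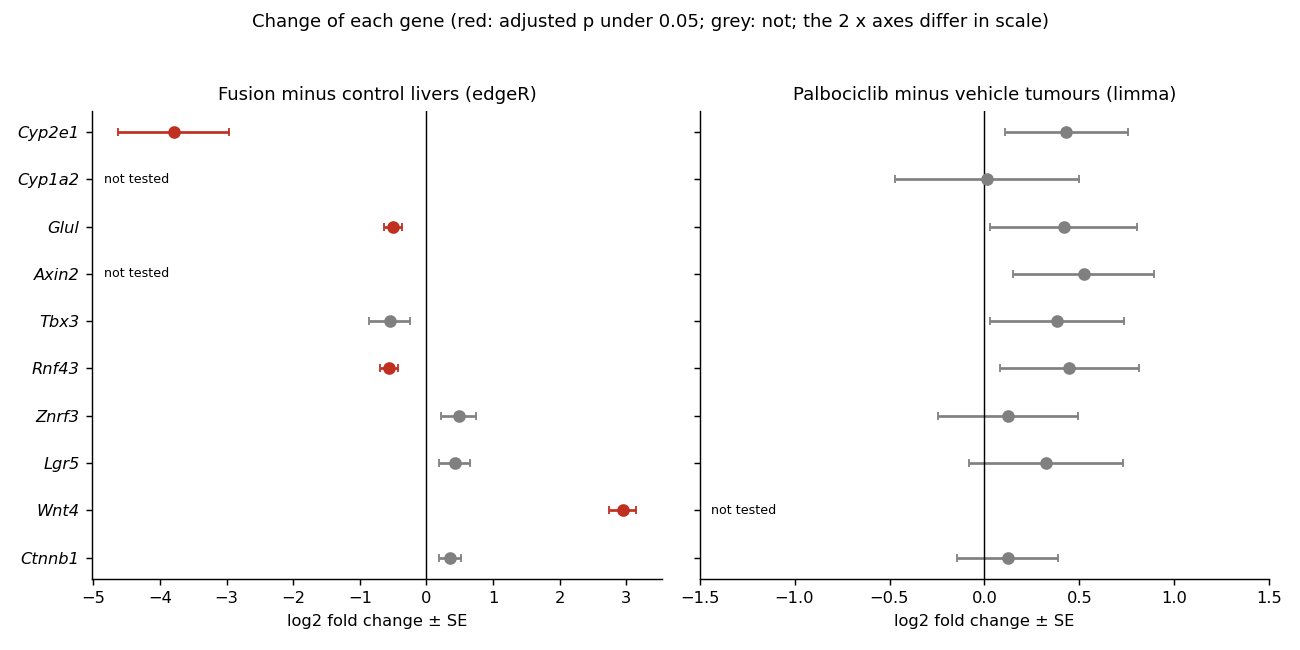
Log2 fold change with its standard error for each gene, fusion minus control livers (edgeR, left) and palbociclib minus vehicle tumours (limma on log2(CPM + 1), right), with adjusted p under 0.05 in red. On the left Cyp2e1 at -3.79, Glul at -0.50, Rnf43 at -0.56 and Wnt4 at 2.94 are red, and on the right no gene is.

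Whether Cyp2e1 moved with the other genes was tested from the difference between log2(CPM + 1) of Cyp2e1 and of each other gene within every library. The difference Cyp2e1 minus Glul lay between -1.60 and -0.96 in control livers and between -6.82 and -3.09 in fusion livers. The fusion mean minus the control mean of this difference was -4.07, so Cyp2e1 fell relative to Glul. The same held against Axin2 (-4.13), Tbx3 (-4.21), Rnf43 (-4.08), Znrf3 (-4.96), Lgr5 (-4.82), Ctnnb1 (-4.95) and Wnt4 (-7.51), where each value is the same difference of means. In all 8 pairs the groups did not overlap and the two-sided exact permutation test gave p = 0.00794, also after adjustment over the 8 pairs. This is the smallest p that the design allows. All 8 pairs share the Cyp2e1 values, and the genes were chosen with earlier results of these data known. The 8 tests are therefore not 8 separate results, and their p was nearly fixed by the large fall of Cyp2e1 itself. Relative to each of the 8 other genes, Cyp2e1 was thus lower in the fusion livers, also relative to Glul and Rnf43, which fell themselves. The pair with Wnt4 adds the rise of Wnt4 to the fall of Cyp2e1 and does not compare the sizes of these opposite changes. Values of Axin2 and Lgr5 are compressed on this scale, as they are near 1 CPM.

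Per kilobase of exon, control livers had 132 CPM per kb of Glul, 87.3 of Cyp2e1, 26.4 of Ctnnb1, 7.30 of Wnt4, 1.88 of Rnf43, 0.846 of Tbx3, 0.489 of Znrf3, 0.157 of Axin2 and 0.113 of Lgr5. Neighbours in this order whose ranges overlapped were Tbx3 with Znrf3 and Axin2 with Lgr5. In the fusion livers Wnt4 stood second at 56.7 CPM per kb, after Glul at 94.1 and before Ctnnb1 at 34.0, with no overlap among them. Cyp2e1 followed at 6.50 CPM per kb, and its range of 0.725 to 21.0 took in that of Rnf43 (1.10 to 1.48).

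The list of 25 pericentral genes, which includes 6 of the genes above, had 21 tested members. Of these, 12 fell and 2 rose, against 6.81% lower and 5.99% higher over all genes, with a median log2 fold change of -0.63 against -0.01 over all genes tested. Beside Cyp2e1 the largest falls were those of Slco1b2, a bile acid and drug transporter (72.8 ± 21.9 to 10.7 ± 11.1 CPM; -2.82, edgeR adjusted p = 0.00737), Cyp2c37 (-2.46, adjusted p = 0.0210; 0.0622 without fusion 7 and 0.0629 without fusion 8) and the xenobiotic receptor Nr1i3 (-2.32, adjusted p = 0.00216). Higher were the cytochrome Cyp2a5 (2.20, adjusted p = 0.0323) and Oat, an enzyme of ornithine breakdown (33.4 ± 5.50 to 76.9 ± 19.4 CPM; 1.19, adjusted p = 0.00233). Oat is found beside Glul around the central vein of the adult liver, and it moved the other way from Glul here. The groups overlap for Cyp2a5, where control 1 had 126 CPM and fusion 7 had 102 CPM. The log2 fold change of Cyp2a5 was 1.60 without fusion 6 and 3.06 without control 1, and its call remained in 3 of 9 fits that left out 1 library (adjusted p up to 0.0843).

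Of the periportal list, 23 of 23 genes were tested, 11 rose and 2 fell, against 5.99% higher and 6.81% lower over all genes, and the median log2 fold change was 0.85. Pck1, the enzyme that commits carbon to glucose synthesis, was 25.8 ± 20.7 CPM in control and 1049 ± 392 CPM in fusion livers (5.32, edgeR adjusted p = 0.000519). Tat (4.68), Sds (4.53) and G6pc (2.36), enzymes of amino acid breakdown and glucose release, rose as well. Hsd17b6 (-2.49) and Pigr (-1.11) fell, with edgeR adjusted p of 0.0227 and 0.0426. Leaving out 1 library kept the call of Hsd17b6 in 5 of 9 fits and that of Pigr in 2 of 9 (adjusted p up to 0.0694 and 0.108), and within the libraries of high ribosomal share Hsd17b6 was at -0.84 (adjusted p = 0.399).

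**Figure D3:**
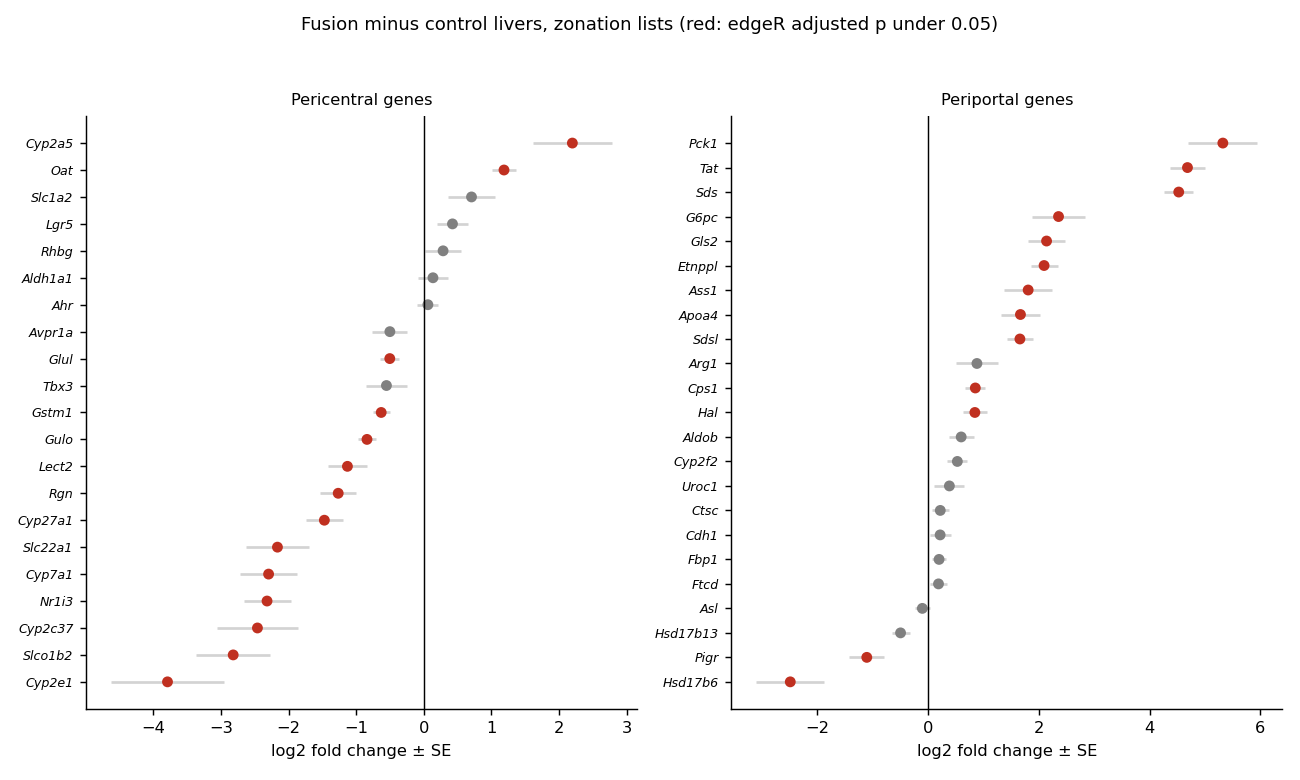
Log2 fold change with its standard error, fusion minus control livers, of the tested genes of the pericentral list (left) and the periportal list (right), with edgeR adjusted p under 0.05 in red. Cyp2e1 lies at the bottom of the pericentral genes at -3.79 with Cyp2a5 at the top at 2.20, and the periportal genes run from Hsd17b6 at -2.49 to Pck1 at 5.32.

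Along the Wnt pathway, genes were called in both directions. Beside the shares over all genes tested (12.8% called, 5.99% higher and 6.81% lower), 2 of 6 ligand and secretion genes, 2 of 14 receptors, 4 of 10 inhibitors and 0 of 22 genes of the cytoplasm and nucleus were called. Among 25 genes for ligands and their secretion, 6 were tested, and Wnt4 and Porcn rose. Porcn, the enzyme that attaches the lipid Wnt proteins need for secretion, went from 3.78 ± 0.43 to 10.7 ± 3.37 CPM (1.51, edgeR adjusted p = 0.00166). Rspo3, the R-spondin of the central vein, was 8.79, 10.2, 8.24, 8.41 and 7.40 CPM in control livers 1 to 5 and 2.92, 3.67, 6.54 and 7.88 CPM in fusion livers 6 to 9 (-0.75, edgeR adjusted p = 0.0895). Without fusion 9 that change was -1.02 (adjusted p = 0.0282). With the ribosomal share set as a covariate, a fit in which 32.6% of genes were called, it was -0.91 (edgeR adjusted p = 0.00238). Of 9 fits that left out 1 library, only the 1 without fusion 9 called Rspo3 (edgeR adjusted p up to 0.214). Among 9 other alternatives, with changes of -1.32 to -0.40, 3 called it. The central vein ligand Wnt2 was 2.86 ± 0.39 CPM in control and 2.32 ± 0.49 CPM in fusion livers (-0.33, adjusted p = 0.316).

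Of 14 receptors tested, a share near that of all genes was called: the R-spondin receptor Lgr4 (0.82, edgeR adjusted p = 0.00533) and the co-receptor Lrp6 (0.47, edgeR adjusted p = 0.0217) rose, and the median log2 fold change of the list was 0.22. The call of Lrp6 was lost without control 3, control 4 or fusion 8 (adjusted p from 0.0512 to 0.0627). Of 10 inhibitors tested, Sfrp4, a secreted Wnt antagonist, rose (1.02, edgeR adjusted p = 0.0186), though not without fusion 6 (0.0646) or fusion 8 (0.0507). The secreted antagonist Wif1 fell from 3.70 ± 1.84 to 0.597 ± 0.411 CPM (-2.81, edgeR adjusted p = 0.00649), and the feedback inhibitor Nkd1 fell from 4.37 ± 0.79 to 2.71 ± 0.45 CPM (-0.72, edgeR adjusted p = 0.0316), beside Rnf43. Without any one of control 3 to 5 or fusion 6 to 8 the adjusted p of Nkd1 was 0.0685 to 0.0933. Within the libraries of high ribosomal share Wif1 was at -1.33 (edgeR adjusted p = 0.105).

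Of 22 tested genes of the destruction complex and the nuclear partners, 0 passed in edgeR, 6 had an unadjusted p under 0.05, as did 29.3% of all genes tested, and DESeq2 called 1, where it called 18.4% of all genes. With the ribosomal share set as a covariate 8 passed, where 32.6% of all genes did. Tcf7l2, the main TCF partner of beta-catenin in hepatocytes, was 26.3 ± 6.28 CPM in control and 20.4 ± 4.29 CPM in fusion livers (edgeR adjusted p = 0.210). Lef1, another TCF factor, was 6.58 ± 0.94 and 8.74 ± 1.18 CPM (edgeR adjusted p = 0.110). Of 13 beta-catenin targets tested, Nkd1 and Rnf43 fell and none rose, a share close to the 12.8% called over all genes, with a median log2 fold change of -0.04 against -0.01 over all genes tested. That count was 0 without control 3, fusion 7 or fusion 8, and 6 with the ribosomal share set as a covariate (3 higher, 3 lower). It was 0 within the libraries of high ribosomal share and 6 within those of low share (1 higher, 5 lower).

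**Figure D4:**
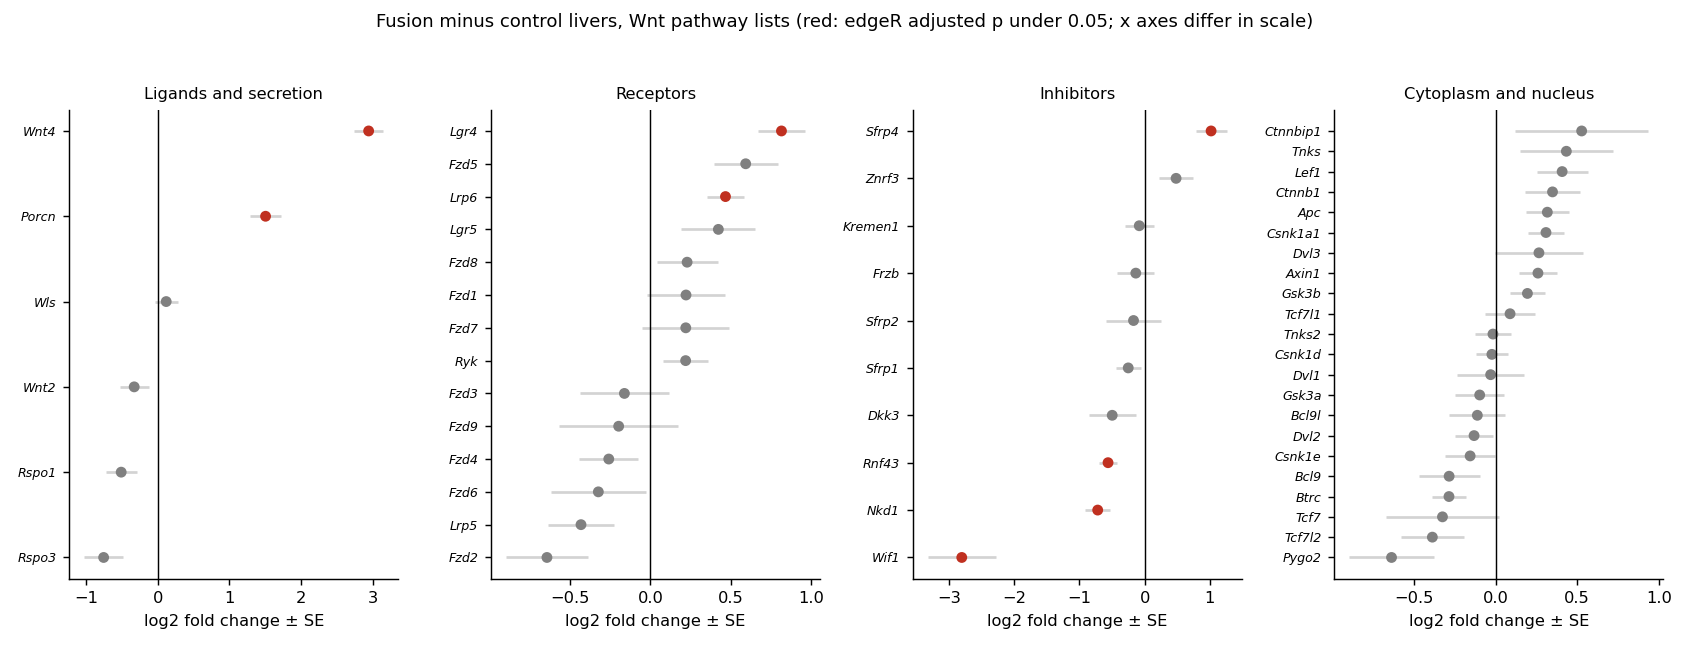
Log2 fold change with its standard error, fusion minus control livers, of the tested genes of the Wnt pathway in 4 lists, with edgeR adjusted p under 0.05 in red. Red points are Wnt4 at 2.94 and Porcn at 1.51 among ligands and secretion, Lgr4 at 0.82 and Lrp6 at 0.47 among receptors, and Sfrp4 at 1.02, Rnf43 at -0.56, Nkd1 at -0.72 and Wif1 at -2.81 among inhibitors.

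In whole livers, fewer cells of a type and less RNA per cell cannot be told apart. The summed level of 10 endothelial markers, cells that release Wnt2 and Rspo3, was 237 to 283 CPM in control and 246 to 384 CPM in fusion livers, and 0 of 10 were called in edgeR or DESeq2 (1 at an unadjusted p under 0.05; 5 with the ribosomal share set as a covariate). Mesothelial markers summed to 29.0 to 42.1 CPM in control and 17.5 to 25.6 CPM in fusion livers, with 2 of 6 lower. Markers of stellate cells and fibroblasts summed to 418 to 597 and 324 to 407 CPM, with 3 of 10 lower, and biliary markers to 60.5 to 90.3 and 24.7 to 53.1 CPM, with 3 of 6 lower. Over all genes tested 12.8% were called, 6.81% of them all as lower. Reln (155 ± 4.49 to 107 ± 17.7 CPM) had the highest mean of the stellate list, where Col3a1 (-0.09) and Dcn (0.04) were not called. Spp1 (32.9 ± 9.75 to 10.1 ± 10.5 CPM), highest of the biliary list in controls, was not called (edgeR adjusted p = 0.0520). The mesothelial, stellate and biliary sums were each lower in every fusion liver than in every control. Which cells express Wnt4, Wnt2 and Rspo3 in these livers was not tested. Hepatocyte markers summed to 154915 to 191161 CPM in control and 169448 to 202855 CPM in fusion livers. The part of cell composition in the changes of Cyp2e1, Glul and Wnt4 was not tested.

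The genes whose centred log2 levels followed Cyp2e1 most closely over the 9 livers were Serpina3k, Cyp2c70, Serpina4-ps1, Serpina3m and Akr1c6, with root mean square differences of 0.34 to 0.81. Serpina3k was 191 ± 66.5 CPM in control and 15.4 ± 20.1 CPM in fusion livers. Those nearest to Wnt4 included Mgarp, Ppargc1a, Gpt and Pcdh20, at 0.32 to 0.42. Ppargc1a, a coactivator of mitochondrial and gluconeogenic genes, was 8.14 ± 0.99 CPM in control and 62.0 ± 16.1 CPM in fusion livers. Reads of the Serpina3 genes are uncertain, as these are closely related copies in a cluster.

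In the FL8 tumours none of the 9 genes differed detectably between palbociclib and vehicle. With limma on log2(CPM + 1), 0 of 9 passed, as did 0 (0.0%) of the 12829 genes tested. At an unadjusted p under 0.05 there were 586 such genes (4.57%), none of the 9 among them. On reads recovered from the CPM values DESeq2 called 8 genes (0.0468%) and edgeR 0, again with none of the 9. All 9 genes had overlapping groups, as did all but 0.935% of the genes tested.

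Cyp2e1 was 469, 768, 981, 922 and 1623 CPM in vehicle tumours 1 to 5. In palbociclib tumours 1 to 5 it was 1195, 1043, 1569, 1376 and 878 CPM. Vehicle 1 was the lowest and vehicle 5 the highest of the 10 tumours, so the treated tumours lie within the vehicle range. The log2 fold change was 0.43 ± 0.32 (SE; limma adjusted p = 0.953). Cyp1a2, the caffeine-metabolising cytochrome, was 187, 501, 720.5, 372 and 996 CPM with vehicle and 991, 296, 286, 262 and 1187 CPM with palbociclib. Its palbociclib tumours fell into 2 high and 3 low values, and its log2 fold change was 0.01 ± 0.49 (limma adjusted p = 0.998).

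Glul was 939, 1674, 2599, 1249 and 2531 CPM with vehicle and 2869, 1274, 2218, 1615 and 4194 CPM with palbociclib (0.42 ± 0.39, limma adjusted p = 0.953). Palbociclib 5 was highest for both Glul and Cyp1a2. Axin2 was 9.07, 44.8, 41.0, 43.7 and 25.4 CPM with vehicle and 40.7, 28.4, 41.8, 42.6 and 59.9 CPM with palbociclib (0.52 ± 0.37, limma adjusted p = 0.953). Apart from vehicle 1, both groups span a similar range of Axin2.

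Tbx3 ranged from 16.8 to 81.5 CPM with vehicle and from 48.2 to 82.3 CPM with palbociclib. Rnf43 ranged from 19.4 to 121 CPM with vehicle and from 64.0 to 106 CPM with palbociclib. Znrf3 spanned 5.26 to 28.1 CPM and 12.2 to 24.0 CPM in the same order. For these ubiquitin ligases and for Tbx3 the palbociclib values, except the top Tbx3 value, lie inside the vehicle range. Lgr5 spanned 3.66 to 25.6 CPM and 13.7 to 23.3 CPM. Ctnnb1 spanned 190 to 419 CPM and 264 to 365 CPM, again inside the vehicle range. The log2 fold changes of these 5 genes lay between 0.12 and 0.45, each with an SE of at least 0.27.

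Vehicle 1 had the lowest value of all 10 tumours for each of the 9 genes. It was also lowest in the hepatocyte genes Apob (913 CPM against 2442 to 4592 in the others) and Serpinc1 (278 against 960.2 to 1481 CPM). It was highest in the macrophage genes C1qa (433 against 12.8 to 44.7 CPM) and Cd68 (121 against 2.03 to 34.5 CPM). Over the 7 macrophage markers measured, the sums were 36.1 to 773 CPM with vehicle and 37.5 to 102 CPM with palbociclib, and their part in the values of the 9 genes was not tested. With mitochondrial genes left out and values rescaled to the same total, it remained lowest for 5 of them (Axin2, Tbx3, Rnf43, Znrf3 and Lgr5), and Lgr5 in it was 6.86 CPM against 11.8 to 26.7 CPM in the other vehicle tumours. Without vehicle 1 and vehicle 5 the log2 fold changes of Axin2 (-0.053), Tbx3 (-0.20), Rnf43 (-0.043), Znrf3 (-0.33), Lgr5 (-0.36) and Ctnnb1 (-0.24) turned negative. The direction of these 6 genes therefore depends on those tumours. Values of all genes tested had a median log2 fold change of 0.14, which was 0.01 after TMM scaling; Cyp1a2 (-0.14), Znrf3 (-0.0068) and Ctnnb1 (-0.026) were below 0 on that scale.

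Among other Wnt targets in the tumours, Sp5 was 15.4 ± 5.81 CPM (SD, n = 5) with vehicle and 20.5 ± 8.71 CPM (SD, n = 5) with palbociclib, and Notum was 34.2 ± 21.0 and 28.9 ± 7.85 CPM. Both are direct targets of beta-catenin and were not analysed in the embryos. Of 15 beta-catenin targets tested, 1 had an unadjusted p under 0.05: Ccnd1, which encodes cyclin D1, the partner of CDK4 and CDK6. Ccnd1 was 72.9 ± 28.8 CPM with vehicle and 128 ± 33.5 CPM with palbociclib (0.87 ± 0.29, limma adjusted p = 0.953). None of the 4 ligand and secretion genes tested was called; Wnt5a was 2.90 ± 2.28 and 4.38 ± 2.11 CPM. Marker sums of blood cells differed widely among the tumours: erythroid markers summed to 1298 to 95977 CPM with vehicle and 1735 to 8423 CPM with palbociclib, and their part in the values above was not tested.

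Set side by side, livers and tumours differed widely in the levels of these genes. The tables were normalized separately and RNA was selected differently (poly-A RNA in the embryos, labelled total RNA in the tumours), so no test was made. Axin2 was 0.157 CPM per kb in control livers, 0.059 in fusion livers, 5.95 in vehicle and 7.75 in palbociclib tumours. Lgr5 was 0.113, 0.153, 1.70 and 1.82 CPM per kb in the same order. Tbx3 was 0.846, 0.591, 7.83 and 9.12 CPM per kb, and Cyp2e1 was 87.3, 6.50, 442 and 562 CPM per kb. Each tumour value of Axin2, Lgr5, Tbx3 and Cyp2e1 was above every liver value. Ctnnb1 was 26.4, 34.0, 57.9 and 60.4 CPM per kb. In vehicle tumours the order per kb was Glul at 541, Cyp2e1 at 442, Cyp1a2 at 276, Ctnnb1 at 57.9, Rnf43 at 10.5, Tbx3 at 7.83, Axin2 at 5.95, then Znrf3, and Lgr5 at 1.70. All neighbours in it overlapped in range except Cyp1a2 (92.9 to 495) and Ctnnb1 (36.6 to 80.7), and Ctnnb1 and Rnf43 (2.96 to 18.5).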

How the data were processed

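RNA sequencing of 9 embryonic livers and 10 allograft tumours was analysed. The 10 genes and the gene lists were chosen with earlier results of these data known. For the embryos (poly-A RNA) the authors deposited unnormalised counts by gene symbol, per the labels; its second block of 9 rescaled columns was not used. For the tumours they deposited CPM, per the file headers; 100% of these values are whole multiples of 1 read (tolerance 0.001). The submitters' processing notes name STAR 2.5.1b and DESeq2 for the embryos, cutadapt 2.10, HISAT2, featureCounts, DESeq2 and R 4.1.2 for the tumours, and mm10 for both. Strand use and shared reads are not given in the sources used here. Where the series text names saline injections, the labels' vehicle was followed.

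The livers were compared by edgeR's quasi-likelihood test (version 4.0.16 in R 4.3.3, with TMM and filterByExpr); embryo levels are TMM-scaled CPM. Tumours were tested with limma 3.58.1 (trend) on log2(CPM + 1), keeping genes that averaged 1 CPM or more, a scale that understates changes of low genes. Benjamini-Hochberg adjustment ran over all genes tested, with a threshold of 0.05. Cyp2e1 was paired with 8 genes and not 9, as Cyp1a2 is not among the embryo rows. Levels per kb use GENCODE M21 exon lengths. A floor of 3 counts was 0.0658 to 0.392 CPM in embryo and 0.0695 to 1.01 CPM in tumour libraries and covers counting error only. The labels tie no library to a litter or host mouse, so p-values measure the spread between these samples. Both fits were tested on simulated data with 4-fold changes, where 12 of 212 embryo calls and 18 of 213 tumour calls were false. Smaller changes were not simulated, and the simulated spread was set and not taken from these libraries.

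From each list up to 4 called genes per direction with the largest fold change were named, or the 2 with the smallest p where none was called; Wnt2, Wnt9b, Rspo3, Nkd1, Sp5, Notum, Lef1 and Tcf7l2 were always named where measured. Likeness to Cyp2e1 and Wnt4 was the root mean square difference of centred log2 levels, with the 5 nearest genes taken for each; some items are not reported here. Alternatives were other scalings, filters, pseudocounts, tools (DESeq2 1.42.0, limma-voom), covariates, library sets and leaving out libraries; the interaction with the ribosomal share set was added after seeing the data.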

Additional observations from a re-analysis of the deposited data

Results flagged for a closer look

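Of 36 gene and group combinations of 4 or 5 libraries screened for a library far from the others, 3 were found, and chance gives about 1.8. Cyp2e1 in fusion 9 was 45.3 CPM, against 1.56 to 5.23 CPM in the other fusion livers. Glul in fusion 9 was 395 CPM, against 279 to 294 CPM. Both pericentral genes were thus nearest to the control level in the same liver, where Wnt4 at 185 CPM was also the lowest of the fusion livers. Fusion 9 was the only fusion liver with the Xist level of males (0.534 against 162 to 263 CPM) and had the lowest Prkaca of the fusion livers (52.5 CPM); their part in its values was not tested. Znrf3 in fusion 6 was 8.55 CPM, against 4.00 to 4.63 CPM; that library was the deepest, with 45.6 M counts.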

How the results depend on the processing

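Cyp2e1 and Wnt4 were called in the livers under every alternative run, with log2 fold changes of -6.22 to -2.55 and 2.67 to 3.16. The exact permutation tests of Cyp2e1 against 8 genes gave 8 of 8 under both other pseudocounts, TMM scaling and leaving out each library in turn, the alternatives run for them. These 8 tests share the Cyp2e1 values and are not 8 separate results. The groups do not overlap in any pair, so leaving out a library could not lower that count. The number of genes called in the livers was 2 to 4 when 1 library was left out, being 2 (Cyp2e1 and Wnt4) without control 3, fusion 7 or fusion 8. It was 3 to 6 under the other alternatives, which is within 1.5 times of 4, but the genes called were not always the same. Within the libraries of high ribosomal share Glul and Rnf43 were lost and Ctnnb1 was called. Axin2 and Tbx3 were called within those of low share. The share of all genes called also moved, from 12.8% in the main fit to 18.4% with DESeq2 and 32.6% with the ribosomal share set as a covariate. Within the libraries of high and low ribosomal share it was 20.0% and 21.8%, so these counts are not particular to the genes followed. Tbx3 changed direction within the libraries of high ribosomal share (0.26).

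In the tumours 0 of 9 genes were called under every alternative, and the fold changes of several genes crossed 0. With TMM factors they were -0.14 for Cyp1a2, -0.0068 for Znrf3, -0.026 for Ctnnb1 and -0.070 for Notum. With mitochondrial genes left out they were -0.13 for Cyp1a2, -0.0032 for Znrf3, -0.024 for Ctnnb1 and -0.066 for Notum. With edgeR on recovered reads they were -0.015 for Cyp1a2, -0.070 for Znrf3, -0.049 for Ctnnb1, -0.28 for Notum, -0.37 for Spp1 and -1.08 for Cd68. With DESeq2 on recovered reads they were -0.038 for Cyp1a2, -0.079 for Znrf3, -0.061 for Ctnnb1, -0.29 for Notum and -0.39 for Spp1. With vehicle 1 and vehicle 5 left out they were -0.085 for Cyp1a2, -0.053 for Axin2, -0.20 for Tbx3, -0.043 for Rnf43, -0.33 for Znrf3, -0.36 for Lgr5, -0.24 for Ctnnb1, -0.43 for Notum, -0.10 for Prkaca, -0.058 for Bcl9l and 0.40 for C1qa. Leaving out 1 tumour gave ranges of -0.32 to 0.28 for Cyp1a2, -0.27 to 0.29 for Znrf3, -0.11 to 0.52 for Lgr5, -0.025 to 0.26 for Ctnnb1, -0.44 to 0.32 for Notum, -1.03 to 0.21 for C1qa, -0.34 to 0.031 for Nkd1, -0.093 to 1.24 for Cd68 and -0.42 to 0.022 for Dnajb1. The cause was not tested.

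With the tumour number as a replicate block 0 of 9 genes were called. Same-numbered tumours share only a number: their deviations correlated at -0.32 to 0.00, those of other pairs at -0.21 to 0.27, and 0 of 5 palbociclib tumours correlated best with their own number. Depth limits Axin2 in the livers, with 1 to 33 counts, and Lgr5 in vehicle 5, with 34 reads.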

Other observations

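Beside the pericentral genes, 3 of 6 tested markers of the bile duct lineage fell in the fusion livers, against 6.81% called lower over all genes tested. Epcam went from 4.85 ± 1.21 to 1.78 ± 1.13 CPM (log2 fold change -1.51, edgeR adjusted p = 0.0239), and Krt7 from 7.40 ± 0.87 to 3.81 ± 0.77 CPM (-0.98, edgeR adjusted p = 0.00512). Krt19, which mesothelium expresses too, went from 7.16 ± 0.18 to 3.85 ± 0.75 CPM (-0.91, edgeR adjusted p = 0.00418). Afp, the fetal serum protein of hepatocytes, rose from 42061 ± 4703 to 77103 ± 11474 CPM (0.86, edgeR adjusted p = 0.0178) while Apoa1 fell (-0.89, edgeR adjusted p = 0.0382). Leaving out 1 library kept the call of Apoa1 in 2 of 9 fits and that of Epcam in 6 of 9 (adjusted p up to 0.0989 and 0.0704).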
